A study of Cucumis sativus with 6 samples.

Results

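In the cucumber (Cucumis sativus) fruit on the day of flower opening, 100 of the 17073 genes listed were chosen by their spread between replicate libraries of the same line. The values that chose them were RPM (reads per 1000000 reads counted in the listed genes) in 6 RNA-seq libraries, 3 of the line 32X and 3 of the line GFC. A gene was a candidate if its mean lay from 20 to under 800 RPM and its line means of log2(RPM + 1) differed by less than 0.3, which held for 7098 genes. The members are the 100 candidates with the largest pooled within-line SD, the square root of the mean of both line variances of log2(RPM + 1). All 6 libraries entered this choice, so the spread, level and line difference of the members are described here and not tested.

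32X and GFC are near-isogenic lines of the northern China type with short, light green fruits, grown in a greenhouse, and no treatment is named for either. The labels enter the same inbred line as genotype for all 6 samples, so the lines rest on the sample titles, and they do not say whether a replicate was 1 fruit, 1 plant or a pool. Any p-value therefore measures the spread between these samples, which may be technical. The libraries held 15320600 to 18089654 reads, recovered from the RPM values. The table pairs its gene IDs with no names, and 0 rows of the RefSeq gene table used here hold such an ID, so the members are given by ID, no role is stated for any of them, and the fruit label could not be checked against marker genes.

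The cucumber fruit develops from an inferior ovary, and near flower opening its growth passes from cell division towards cell expansion. RNA from whole fruits mixes tissues such as the exocarp, the fleshy mesocarp, the placenta and the ovules. In such bulk samples, fewer cells of a type and less RNA per cell cannot be told apart. The spread between replicates is the error against which a difference between lines is judged, so genes with a large spread are those where a line difference is hardest to detect.

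The members spread about 3 times as widely as the candidates in general, and far more than read counting alone gives. Their pooled within-line SD ran from 0.266 to 0.957 with a median of 0.31, against a median of 0.10 over the 7098 candidates and 0.14 over all listed genes. The SD that counting of the recovered reads would give, with Poisson error, had a median of 0.05 for the members. The observed SD was 3.54 to 18.0 times that value in every one of the 100 members, with a median of 6.41, against a median of 2.13 for the candidates. Whether PCR copies of a molecule were removed or counted as separate reads is not stated, so this comparison covers counting error only.

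**Figure D1:**
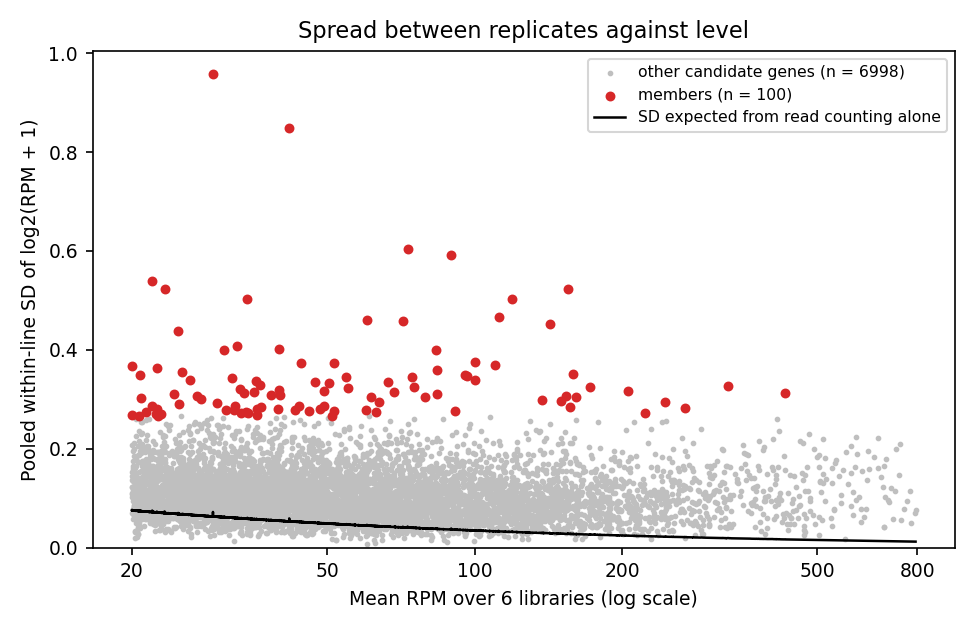
Pooled within-line SD of log2(RPM + 1) against mean RPM (log scale) for the 100 members (red) and the other candidate genes (grey), with the SD expected from read counting as a line. The members lie from 0.266 upward at all levels up to 430.5 RPM, and Csa5G197120 (0.957) and Csa1G422990 (0.849) stand above the rest.

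The threshold was not a gap in the data. The last 2 members had an SD of 0.2664 and 0.2661, and the next 2 candidates had 0.2660 and 0.2655. The third largest SD was 0.604 and the fiftieth 0.315, so the members ranked below the fiftieth lay in a narrow band above the limit. The mean level of the members ran from 20.03 to 430.5 RPM with a median of 45.2, somewhat below the 53.7 RPM of the candidates, and 55 members lay under 50 RPM. Under 20 RPM, 570 genes had a line difference and an SD that would have met the limits, the highest of them at 19.99 RPM, and from 800 RPM upward 1 gene did. Within the level range 540 genes had an SD at least as large as that of the last member, and 440 of them were left out because their lines differed by 0.3 or more, the nearest by 0.302. The members are thus the part of the variable genes whose line means lay within the limit. Chosen anew without 32X replicate 1, 2 or 3, the list kept 44, 50 or 46 of the members, and without GFC replicate 1, 2 or 3 it kept 65, 57 or 70.

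In fold terms the spread was moderate. The highest and lowest replicate of a line differed by a median of 1.67-fold in 32X and 1.39-fold in GFC, against 1.15-fold and 1.11-fold for the candidates. A range of at least 2-fold in a line was seen in 18 members, 12 of them in 32X and 9 in GFC. These 18 were all the candidates with such a range. That follows from the rule, since such a range in 1 line alone puts the pooled SD above the limit. Csa5G197120, Csa1G422990 and Csa3G132580 reached 2-fold in both lines. Csa3G132580, named after its values were seen, had 23.9, 30.2 and 48.2 RPM in 32X replicates 1 to 3 and 46.1, 22.5 and 35.5 RPM in GFC replicates 1 to 3.

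Since the rule kept line differences under 0.3, a small difference of line means is no finding here. The absolute difference of line means had a median of 0.17 on the log2(RPM + 1) scale in the members and 0.12 in the candidates, so the line differences of the members were in general the larger. The difference was 0.2 or more in 45 members, against 23.8% of the candidates. GFC was higher in 56 members and lower in 44, near the 57.2% and 42.8% of the candidates.

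In limma's test of GFC against 32X over all listed genes, 20.6% of genes had a Benjamini-Hochberg adjusted p under 0.05, and 0 of the 100 members did. Among the members, 0 also had an unadjusted p under 0.05, and edgeR and DESeq2 on the recovered reads called 0 of them, beside 20.5% and 23.3% of all genes. Of the 7098 candidates, limma called 216, edgeR 209 and DESeq2 311. The rule limited the difference and maximised the spread, so the count of 0 members follows from the choice. A p that misses the threshold does not show that the lines were equal.

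The members were chosen for a large deviation of some library beside a small line difference, so leaving out a library that deviates widens the difference in some of them by construction, and the counts that follow are given as values only. Without 32X replicate 1, limma called 16 of the 100 members at an adjusted p under 0.05, beside 27.9% of all genes in the same fit. Of the 7098 candidates, which had the same limit on the line difference, that fit called 692. Of the 16 members, 7 were higher and 9 lower in GFC, with absolute log2 differences of 0.41 to 0.86. The largest deviation lay in 32X replicate 1 for 14 of them and in 32X replicate 2 for the other two. In the 9 called lower, 32X replicate 1 was the lowest 32X library, and in the 7 called higher it was the highest. Without 32X replicate 2 the members called were Csa3G027210 and Csa4G641670, beside 14.9% of all genes, and without 32X replicate 3 the only one was Csa5G136900, beside 11.4% of all genes. Without GFC replicate 1, 2 or 3 limma called 0 members, with 6, 6 and 0 of them at an unadjusted p under 0.05, beside 13.0%, 9.56% and 7.88% of all genes called. Among the candidates it called 147 without 32X replicate 2 and 18 without 32X replicate 3. The counts without GFC replicate 1, 2 or 3 were 11, 7 and 0 candidates.

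The libraries took unequal parts in the spread, and 32X more than GFC. Of the within-line sum of squares of the members, 63.6% lay in 32X and 36.4% in GFC, nearly the same split as in the candidates (63.8% and 36.2%). By library, 32X replicates 1 to 3 held 23.4%, 22.3% and 17.9% and GFC replicates 1 to 3 held 14.6%, 18.6% and 3.12%. The low value of GFC replicate 3 means that it lay close to its line mean in most members. Among the candidates it held 5.48%, and GFC replicates 1 and 2 held 13.4% and 17.3%. There 32X replicates 1 to 3 held 18.8%, 28.3% and 16.6%. By this measure 32X replicate 2 thus held less in the members than in the candidates, and 32X replicate 1 more. The SD was larger in 32X than in GFC in 71 members, against 64.8% of the candidates, and at least 2 times larger in 46 members, against 32.8%. It was at least 2 times larger in GFC in 10 members, near the 12.02% of the candidates.

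The largest deviation from the line mean lay in 32X replicate 2 for 35 members, in 32X replicate 1 for 25 and in GFC replicate 2 for 21. For the rest it lay in 32X replicate 3 for 12, in GFC replicate 1 for 5 and in GFC replicate 3 for 2. The same shares over the candidates were 33.0% for 32X replicate 2, 16.6% for 32X replicate 1 and 19.6% for GFC replicate 2. With the members chosen anew without GFC replicate 1, 32X replicate 1 held 37 and 32X replicate 2 held 34. Without GFC replicate 2 they held 19 and 53, and without GFC replicate 3 they held 22 each. Without 32X replicate 3, GFC replicate 2 held 13. Beside the candidates, 32X replicate 1 thus held more of the members and GFC replicate 1 fewer (5 members against 11.2% of the candidates). Direction differed too. In GFC replicate 2 the largest deviation was above the line mean in 11 members and below it in 10, where 4.82% of the candidates were above and 14.8% below. In 32X replicate 3 it was above in 9 members and below in 3, where the candidates had 6.33% and 8.58%. Summed over the 100 members, the libraries ran from 6874 RPM in 32X replicate 1 to 7658 RPM in 32X replicate 3. The library with the fewest reads was 32X replicate 2 and the one with the most was GFC replicate 3. The part of depth in these shares was not tested.

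**Figure D2:**
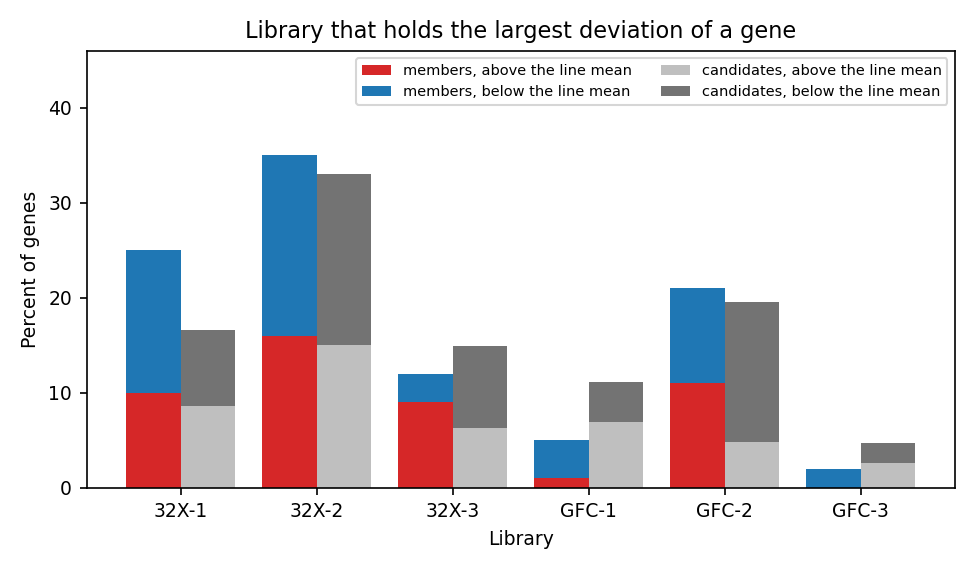
Percent of genes whose largest deviation from the line mean of log2(RPM + 1) lies in each library, for the 100 members (red above and blue below the line mean) and the 7098 candidates (light and dark grey). 32X replicate 2 holds more than any other library in both sets (35 members), and 32X replicate 1 holds 25% of the members against 16.6% of the candidates.

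Among the 35 members that deviated most in 32X replicate 2, 16 were high there and 19 low. The 16 high members had a median deviation of 0.46 in that library, with both other 32X libraries at -0.24, and the medians of their GFC libraries lay between -0.05 and 0.08, though single members spread further there. Csa6G183190 had 90.3, 199.5 and 103.4 RPM in 32X replicates 1 to 3 and 132.3, 79.5 and 111.3 RPM in GFC replicates 1 to 3. In this member 32X replicate 2 alone lay above every GFC library. Csa1G002130 had 145.2, 238.8 and 123.6 RPM in 32X and 152.9, 139.9 and 152.6 RPM in GFC. Its GFC libraries lay close together, inside the range of 32X. The 19 low members had a median deviation of -0.43 in 32X replicate 2, with 0.25 in replicate 1 and 0.16 in replicate 3. Csa6G421060 had 52.0, 30.3 and 60.0 RPM in 32X and 49.9, 56.3 and 61.7 RPM in GFC. Csa6G446520 had 30.8, 18.4 and 35.1 RPM in 32X and 26.0, 40.2 and 34.8 RPM in GFC. In both, 32X replicate 2 lay below all other libraries, and the remaining 5 libraries overlapped between lines.

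Among the 25 members that deviated most in 32X replicate 1, 10 were high there and 15 low. The 10 high members were set mainly against 32X replicate 2, with median deviations of 0.43 and -0.41, and 32X replicate 3 lay near the line mean at -0.05. Csa5G162010 had 85.7, 35.8 and 47.9 RPM in 32X and 71.4, 56.4 and 64.8 RPM in GFC. Csa2G083760 had 142.8, 74.0 and 97.8 RPM in 32X and 96.5, 80.0 and 89.0 RPM in GFC. In both members all GFC libraries lay between 32X replicates 1 and 2. The 15 low members had a median deviation of -0.46 in 32X replicate 1, with replicates 2 and 3 at 0.23 and 0.29. Csa1G422990 had 17.2, 62.3 and 63.3 RPM in 32X and 22.3, 52.1 and 34.1 RPM in GFC. Its lowest 32X library lay below all of GFC and the other 2 lay above all of GFC. Csa4G243390 had 39.9, 70.0 and 107.7 RPM in 32X and 94.1, 77.7 and 48.8 RPM in GFC, and the lines overlapped over nearly their whole range.

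Among the 21 members that deviated most in GFC replicate 2, the 11 high ones had a median deviation of 0.55 there against -0.47 in GFC replicate 1, with GFC replicate 3 at -0.08. In the same 11 members the 32X libraries also spread, with 0.18 in replicate 3, -0.19 in replicate 2 and -0.02 in replicate 1. Csa5G197120, the member with the largest SD, had 18.7, 16.6 and 48.3 RPM in 32X and 11.8, 56.2 and 24.0 RPM in GFC. A single library stood high in each line, 32X replicate 3 and GFC replicate 2, and the ranges of the lines overlapped. Csa5G190560 had 20.4, 14.9 and 27.5 RPM in 32X and 16.1, 38.5 and 22.6 RPM in GFC, with the same pair of libraries highest. The 10 low members had a median deviation of -0.38 in GFC replicate 2 and 0.30 in GFC replicate 1. Csa4G303110 had 42.6, 44.5 and 43.0 RPM in 32X and 44.4, 24.5 and 40.7 RPM in GFC, and Csa1G058090 had 37.8, 43.2 and 38.0 RPM in 32X and 51.4, 28.4 and 41.5 RPM in GFC. In both members the 32X libraries lay close together and GFC replicate 2 was below every other library.

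**Figure D3:**
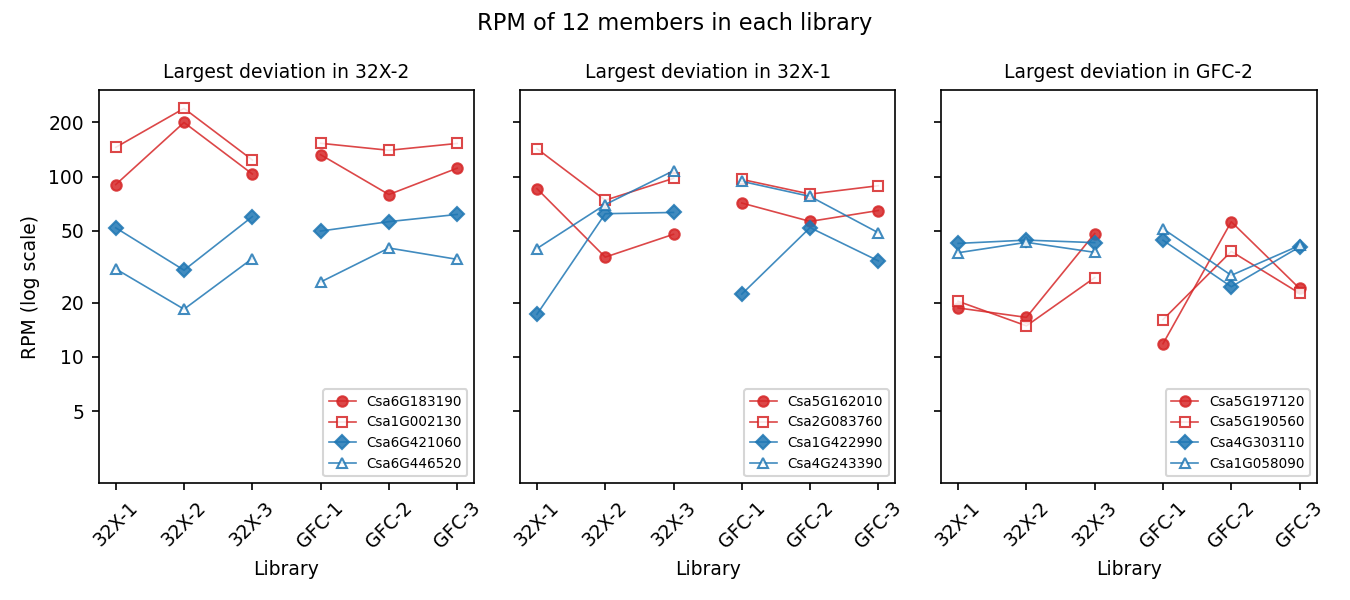
RPM (log scale) in each of the 6 libraries for the 4 named members of each of the 3 libraries that hold the largest deviation of most members, with red for the 2 highest and blue for the 2 lowest deviations there. Csa5G197120 is high in 32X replicate 3 (48.3 RPM) and GFC replicate 2 (56.2 RPM), and Csa4G303110 is level in 32X and low in GFC replicate 2 (24.5 RPM).

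The members did not form a single co-varying group. Across the 6 deviations from the line means, the Pearson r of the 4950 pairs of members had a median of -0.02. It was over 0.8 in 563 pairs (11.4%) and under -0.8 in 533 pairs (10.8%), so strong agreement and strong opposition were about equally common. The same shares over the candidates were 8.28% and 7.08%. Such a balance of signs would also arise in a single pattern with high and low members. Taken without sign, r had a median of 0.50 in the members and 0.47 in the candidates. These correlations rest on 6 libraries with 4 free dimensions and carry no p, and all genes of a library share its RNA and preparation.

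A pair of patterns held most of the spread. The 6 deviations span 4 dimensions after both line means are taken out, and an even spread would put 25% of the sum of squares on each. The leading component of the members held 41.4% and the second 36.5%, together 77.9%, against 47.1% and 27.5% in the candidates. With each gene scaled to the same length, the leading components together held 79.6% in the members and 68.7% in the candidates. The leading component set 32X replicate 3 (loading 0.49) and GFC replicate 2 (0.58) against 32X replicate 1 (-0.42) and GFC replicate 1 (-0.47), with 32X replicate 2 (-0.07) and GFC replicate 3 (-0.11) near 0. The second set 32X replicate 2 (0.74) against 32X replicate 1 (-0.63), with absolute loadings of at most 0.15 in the other 4 libraries. By these loadings the leading component drew on both lines and the second mainly on 32X. The loadings come from unscaled deviations, so members with a large spread weigh more. Csa5G197120 and Csa1G422990 had the largest scores on the leading component (1.81 and 1.40). The loadings therefore do not show that the members at large shared a pattern across lines.

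**Figure D4:**
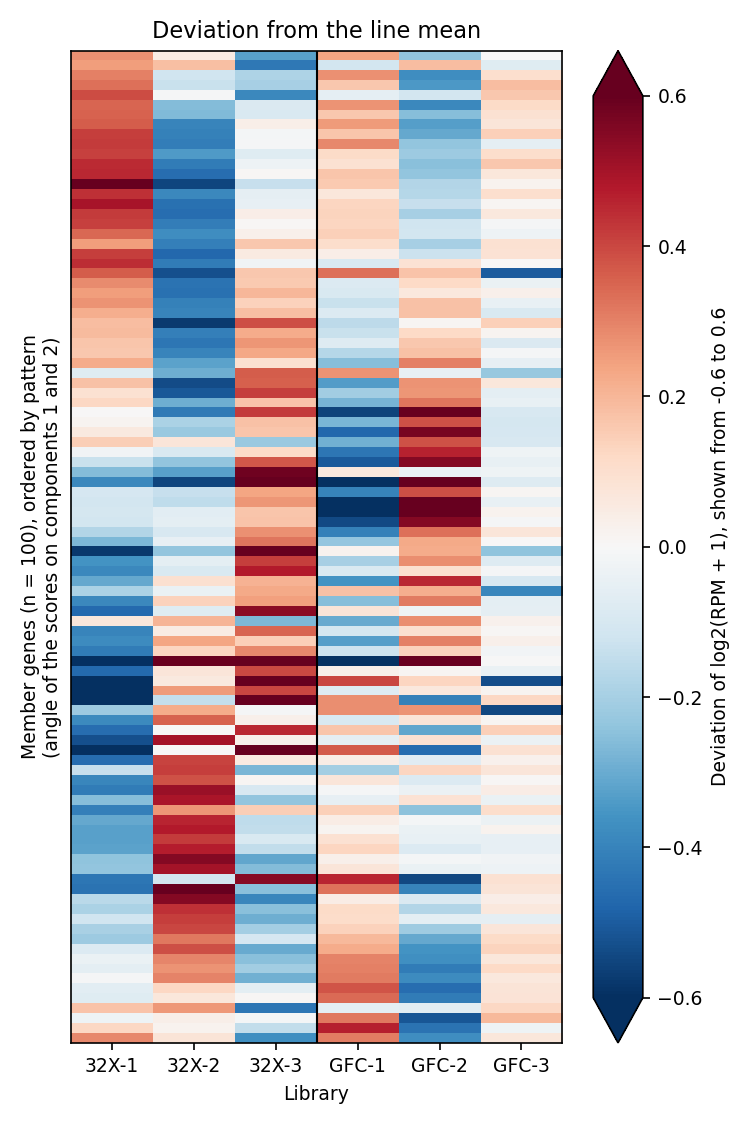
Deviation of log2(RPM + 1) from the line mean for the 100 members (rows) in the 6 libraries (columns), red above and blue below, with rows ordered by their scores on the leading pair of components. Blocks of members set 32X replicate 1 against 32X replicate 2 in either direction, GFC replicate 1 is set against GFC replicate 2, and GFC replicate 3 stays near 0.

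The order of the replicates shows the same patterns. GFC replicate 3 was the middle library of its line in 78 members, against 52.4% of the candidates. In 40 members the GFC order was replicate 1, then 3, then 2, and in 38 it was the reverse, where the candidates had 34.2% and 18.3%. In 32X replicate 3 was in the middle in 41 members, replicate 1 in 30 and replicate 2 in 29, where the candidates had 40.3%, 37.3% and 22.3%. The commonest 32X order was replicate 1, then 3, then 2 (23 members, near the 20.5% of the candidates), followed by 3, 2, 1 (21 members, against 10.2% of the candidates).

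Taking both lines at once, 25 of the 36 possible combinations of orders occurred, and 3 of them held 38 members, where the same 3 held 13.0% of the candidates. In 13 members both lines had the order 1, 3, 2. In another 13 the 32X order was 3, 1, 2 and the GFC order 2, 3, 1, and in 12 the orders were 3, 2, 1 and 2, 3, 1. These 3 combinations were picked because they held the most members, so their shares are a description of this choice.

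Each of the 3 differences between 32X replicates was set beside each of the 3 between GFC replicates across the members. A 32X and a GFC difference share no library, but the differences within a line share libraries, so the 9 pairs are not independent. Their Pearson r ran from -0.37 to 0.32. It was -0.37 for 32X replicate 1 minus 3 with GFC replicate 2 minus 3 and -0.32 for 32X replicate 2 minus 3 with the same GFC difference. The 3 pairs with 32X replicate 1 minus 2 lay near 0, from -0.05 to 0.02, and those with GFC replicate 1 minus 3 ran from -0.03 to 0.17. In 67 of 100 members 32X replicates 1 and 3 stood in the same order as GFC replicates 1 and 2, against 54.5% of the candidates. The differences 32X replicate 1 minus 3 and GFC replicate 1 minus 2 correlated across the members with a Pearson r of 0.32 and a Spearman rho of 0.35, against 0.17 and 0.14 across the candidates. The 33 members with 32X replicate 3 above 1 and GFC replicate 2 above 1 made up a larger share than in the candidates (20.1%), and the 34 members with the reverse in both lines made up about the same share as there (34.4%). Among members in which both of these differences passed 1.5-fold, 3 had the same sign and 3 the opposite sign. For 32X replicate 2 minus 3 the Pearson r with GFC replicate 1 minus 2 was 0.30 in the members and 0.32 in the candidates. For 32X replicate 1 minus 2 it was 0.02 in the members, against -0.18 in the candidates. Genes are not independent replicates, so these values carry no p.

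**Figure D5:**
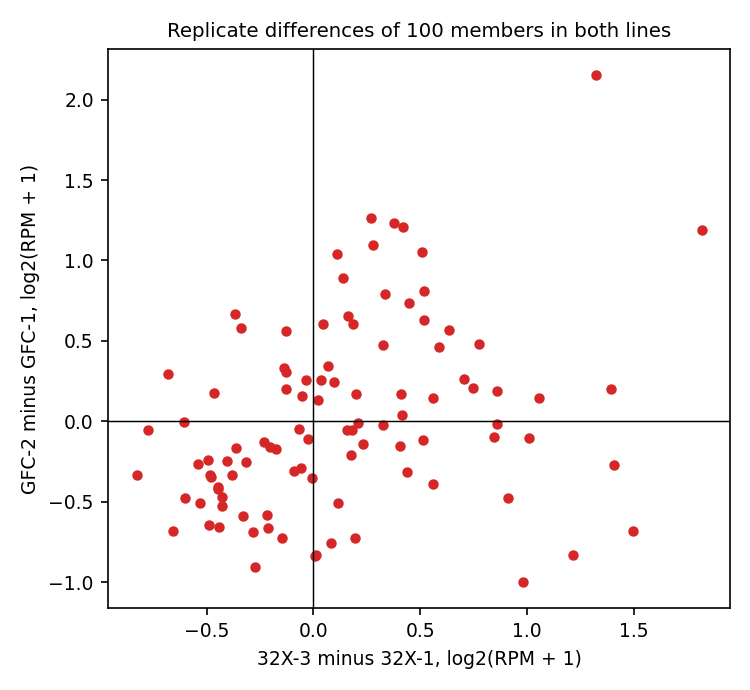
Difference between GFC replicates 2 and 1 against the difference between 32X replicates 3 and 1 for the 100 members, both on the log2(RPM + 1) scale. The points lie at the lower left or upper right in 67 members (Pearson r 0.32), and Csa5G197120 is the point farthest up.

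Candidates with the largest SD in 1 line had a larger SD in the other line than the candidates in general. The ranking used the libraries of 1 line, but all 6 libraries had entered the level and line difference of the candidates. Of the 100 candidates with the largest SD in 32X, 35 were among the top 10% of candidates by SD in GFC and 18 were among the top 100. Their median SD in GFC was 0.13, against 0.07 for all candidates. Of the 100 candidates with the largest SD in GFC, 39 were among the top 10% by SD in 32X, with a median SD there of 0.17 against 0.10. The members included 70 of the first list and 45 of the second.

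By the chromosome code in their IDs the members lay on all 7 chromosomes, with 17, 9, 15, 20, 12, 22 and 4 on chromosomes 1 to 7 and 1 on unplaced sequence. The candidates had 14.1%, 12.5%, 21.4%, 12.6%, 12.5%, 16.8% and 9.81% on the same chromosomes. Chromosomes 1, 4 and 6 thus held a larger share of the members, chromosomes 2, 3 and 7 a smaller one and chromosome 5 about the same. These shares were not tested. Among listed genes in ID order, 2 pairs of members were direct neighbours, and no such count was made for the candidates. Csa3G141890 had 50.2, 63.3 and 45.2 RPM in 32X and 55.5, 33.2 and 48.8 RPM in GFC, and Csa3G142400 had 72.0, 67.0 and 59.5 RPM in 32X and 90.2, 47.6 and 63.8 RPM in GFC. These genes were 510 serial numbers apart, so gene models that are not listed may lie between them. Both had the GFC order 1, 3, 2, their 32X orders differed, and their 6 deviations correlated at 0.83. Csa4G641660 had 43.1, 36.7 and 28.1 RPM in 32X and 38.7, 27.6 and 32.8 RPM in GFC, and Csa4G641670 had 121.4, 211.0 and 137.1 RPM in 32X and 181.2, 156.4 and 160.0 RPM in GFC. This pair, 10 serial numbers apart, also shared the GFC order 1, 3, 2 and differed in its 32X order, with a correlation of 0.10.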

How the data were processed

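The authors deposited a single table of RPM values for 17073 gene models in 6 libraries. The submitters' processing notes name TopHat and HTSeq. Tool versions, genome build, annotation, strand setting and filters are not stated there or in the labels. How reads of overlapping genes or close copies were counted is therefore not known. Each deposited RPM column sums to 1000000, and all values (100%) were whole multiples of 1 read within 0.001 reads, with the smallest value of 32X replicate 3 taken as 2 reads. Recovered totals were 15320600 to 18089654 reads.

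Members were chosen on log2(RPM + 1), without further scaling, with Python 3.11.15, numpy 2.4.6 and pandas 2.3.3. Lines were compared with limma 3.58.1 in R 4.3.3 (intensity trend, no covariates, no filter, two-sided, Benjamini-Hochberg adjustment over all listed genes). edgeR 4.0.16 (quasi-likelihood) and DESeq2 1.42.0 on the recovered reads, other pseudocounts, scalings and limits, the replicate number as a block, and leaving out each library were alternatives. The steps were tested on simulated data. The members and rules were chosen with earlier results of these data known. With no names for the IDs, the text names, for each of the 3 libraries holding the largest deviation of most members, the 2 highest and 2 lowest members, and adjacent members. Sequences are not shown, since no file used here ties one to these IDs.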

Additional observations from a re-analysis of the deposited data

How the results depend on the processing

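Of the 100 members, 92 and 85 were chosen with pseudocounts of 0.1 and 5, 93 with TMM scaling, 86 with quantile normalization and 97 with the counting variance taken off (an alternative added after seeing the data). A lower level limit of 50 RPM kept 45 and a line difference under 0.5 kept 52, since these limits change which genes are candidates. Under these 7 alternatives 32X replicate 2 held the largest deviation of more members than any other library (31 to 38). The leading component held 41.5% to 46.4%, and 21.5% to 24.0% of pairs had an absolute r over 0.8.

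Leaving out each library in turn kept 44 to 70 members. The leading component then held 52.9% to 71.3% and the leading pair 81.6% to 95.9%, and 26.3% to 54.0% of pairs passed an absolute r of 0.8. With 5 libraries only 3 dimensions are free, so such values are higher by construction. The largest deviation lay in 32X replicate 2 for 22 to 53, in 32X replicate 1 for 19 to 37 and in GFC replicate 2 for 13 to 29 of the members chosen anew. It was counted only in the line that kept its 3 libraries, because with 2 libraries both deviate equally.

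The number of genes called between lines was 1346 to 4758 without 1 library, against 3517 with all, and 3027 to 3986 in the count tests and under other pseudocounts, scalings and the filter of 5 RPM in 3 libraries. With a replicate block limma called 2066 genes, 0 candidates and 0 members (6 members at an unadjusted p under 0.05), and the cause was not tested. Deviations of same-numbered libraries correlated at -0.04, -0.27 and -0.09 across genes, so none of the 3 correlated positively. These values cannot tell whether libraries of the same number were grown or processed together. All 144 values of the named members' deviations under alternatives kept their direction. Leaving out a library could not reverse it. A library of the other line leaves the value unchanged, and the library with the largest deviation stays an extreme of its own line. Another pseudocount keeps the order of the libraries, so it could not reverse a direction either. Only TMM scaling and quantile normalization could have done so, and the TMM factors were close together (0.981 to 1.012).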

Other observations

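In the naming scheme of these gene models the serial number in an ID follows the order along the chromosome. Of the 100 members, 8 had a serial number under 5000, against 3.23% of the 7098 candidates and 3.10% of all listed genes. With a limit of 10000 the count was 9, against 6.04% of the candidates. These limits were chosen after the IDs were seen. The 8 were 4 on chromosome 4 (Csa4G000550, Csa4G000810, Csa4G001000 and Csa4G004860), of 52 candidates there, 2 on chromosome 1 (Csa1G000010 and Csa1G002130), of 58, and 2 on chromosome 2 (Csa2G000570 and Csa2G000730), of 49. On chromosome 3 none of the 39 such candidates was a member. The 8 did not share a pattern: 6 deviated most in 32X replicate 2 and 2 in GFC replicate 2, and their 32X orders were of 5 kinds.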
